A study of Mus musculus with 33 samples.

Results

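Imprinted genes are genes of which a cell transcribes mainly the copy inherited from the mother or mainly the copy inherited from the father. They were followed here in mouse embryonic stem cells (ESCs) and in the embryoid bodies (EBs) those cells form. A list of 45 symbols, chosen for known parental expression in the mouse, was looked up by symbol in the table of the series, and 42 of the 45 were among its 16336 genes. Rasgrf1, Kcnq1ot1 and Rtl1 were the 3 symbols with no row, and they were not analysed here. Of the 42 listed genes, 23 are known for expression from the paternal copy, 15 from the maternal copy, and 4 (Grb10, Ddc, Gnas and Inpp5f) for expression that depends on the isoform or the tissue.

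The series compared the ESC line E14Tg2a (129/Ola, wild type) with dK9.1 and dK9.2, 2 clones derived from it in which CRISPR removed a stretch upstream of Nanog that carries trimethylated lysine 9 of histone H3 (H3K9me3). Undifferentiated cells (day 0) were grown on gelatine in medium with fetal calf serum and LIF, and EBs of days 4, 6 and 8 in the same serum medium without LIF. EBs of day 4 were kept on dishes not treated for cell culture, and those of days 6 and 8 had then been plated thinly on gelatine, so that this change of culture and the day cannot be told apart. Poly-A RNA was measured in 3 replicates of each line and day, and in 2 on day 6, giving 33 libraries in 12 groups. The labels name no other agent or allele, and each clone is a single derived line. Values are TPM (transcripts scaled to a common total per library), which keep no count of reads. The paper gives an approximate number of reads per library, so only the exact depth behind a value is unknown. The libraries cannot tell the maternal from the paternal copy, and in bulk EBs fewer cells of a type and less RNA per cell cannot be told apart.

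Parental expression rests on DNA methylation laid down in egg or sperm at imprinting control regions and kept through the divisions of the embryo. The zinc finger protein ZFP57 reads a methylated hexamer in these regions and recruits TRIM28 (KAP1), which in turn brings H3K9 methyltransferase activity and DNA methylation maintenance to that copy. Many imprinted genes act on growth: paternally expressed genes such as Igf2, a fetal growth factor, tend to promote it, and maternally expressed genes such as Igf2r, which clears the IGF2 protein, or Cdkn1c, an inhibitor of cyclin-dependent kinases, tend to restrain it. A small non-canonical class, here Slc38a4, Sfmbt2, Gab1, Jade1 and Smoc1, depends on maternal histone H3 lysine 27 methylation rather than on DNA methylation from the egg, and is known mainly from the early embryo and its extra-embryonic tissues.

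The stretches before the transcription starts of Plagl1, Mest and Meg3 are shown as examples of genes that rose in E14Tg2a and whose stretch holds the hexamer of ZFP57, TGCCGC or its reverse complement GCGGCA, in capitals; Zim1, which rose too and has 1 hexamer, is not printed. They are taken 5′ to 3′ on the strand of the gene from the promoter windows of RefSeq (GRCm38.p6), and end at the base before the start: chr10:13090582-13090831 for Plagl1, chr6:30737800-30738049 for Mest and chr12:109540746-109540995 for Meg3, all on the plus strand.

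Plagl1: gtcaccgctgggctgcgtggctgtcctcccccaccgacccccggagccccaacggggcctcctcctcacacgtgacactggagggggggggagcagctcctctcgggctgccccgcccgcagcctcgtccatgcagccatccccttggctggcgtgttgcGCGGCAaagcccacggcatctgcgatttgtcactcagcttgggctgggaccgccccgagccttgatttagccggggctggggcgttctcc

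Mest: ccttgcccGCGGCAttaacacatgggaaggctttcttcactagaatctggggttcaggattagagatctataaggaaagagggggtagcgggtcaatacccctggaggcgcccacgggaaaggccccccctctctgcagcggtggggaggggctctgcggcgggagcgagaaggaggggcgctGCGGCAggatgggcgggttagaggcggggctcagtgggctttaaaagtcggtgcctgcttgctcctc

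Meg3: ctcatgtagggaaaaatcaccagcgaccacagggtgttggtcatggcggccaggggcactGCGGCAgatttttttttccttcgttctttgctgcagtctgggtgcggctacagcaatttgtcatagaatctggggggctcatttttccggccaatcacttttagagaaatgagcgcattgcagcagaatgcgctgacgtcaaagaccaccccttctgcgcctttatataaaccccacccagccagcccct

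The Plagl1 stretch holds 1 hexamer, that of Mest 2 and that of Meg3 1, and they hold 19, 14 and 10 CpG. Promoter windows were found for 35 of the 42 genes, and the hexamer occurred, on either strand, in the 250 bases before a start of 7 of the 35 (20.0%): Mcts2, Meg3, Mest, Nap1l5, Plagl1, Zdbf2 and Zim1. The share among genes of the TPM table with a window was 16.0% (1827 of 11453), and among all 27025 genes with a window it was 9.84%. Counted by window of 250 bases, the shares were 13.3% (8 of 60) for the imprinted genes and 8.68% of all 32851. A match is a description of the letters, and binding was not measured here. The paternally expressed Peg3, a zinc finger protein, and Usp29, a ubiquitin protease, run in opposite directions from a shared start region on chromosome 7. The 163 bases between both starts of the RefSeq windows, chr7:6730420-6730582 on the plus strand, are shown for that reason with their 5 CpG in capitals; the gene positions of GENCODE given further on set the starts 146 bases apart, so that the ends of this stretch lie within the GENCODE genes. They hold no TGCCGC or GCGGCA.

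Peg3 to Usp29: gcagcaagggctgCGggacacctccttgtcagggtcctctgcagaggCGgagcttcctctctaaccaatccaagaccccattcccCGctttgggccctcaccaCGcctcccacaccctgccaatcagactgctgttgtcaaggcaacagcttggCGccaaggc

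In wild-type E14Tg2a the imprinted genes as a group moved upwards late. The 42 genes summed to 0.154% to 0.189% of the listed TPM on day 0, to 0.228% to 0.259% on day 4, to 0.388% and 0.539% on day 6 and to 1.16% to 1.72% on day 8. Igf2 and H19 alone gave 5154 to 7975 of the 11574 to 17159 summed TPM on day 8. In the plot of summed levels the groups of days 0, 4, 6 and 8 of E14Tg2a do not overlap.

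**Figure D1:**
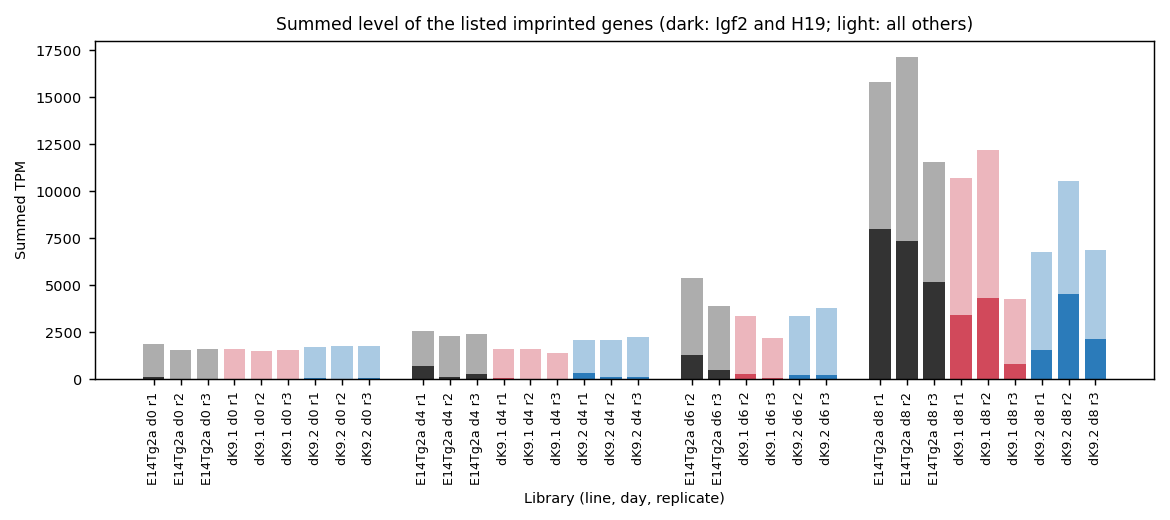
Summed TPM (vertical axis, linear, from 0) of the 42 listed imprinted genes in each of the 33 libraries, by day, line and replicate; the dark part of a bar is Igf2 plus H19 and the light part all others. E14Tg2a rose from 1535 to 1882 on day 0 to 11574 to 17159 on day 8, and replicate 3 of dK9.1 on day 8 stood at 4238 against 10700 and 12180 in the other replicates.

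A gene was called changed where its adjusted p from limma was under 0.05 and its absolute log2 fold change of TPM + 1 above 1. From day 0 to day 8 in E14Tg2a, 25 of the 42 genes rose and 3 fell, against 15.9% of all 16336 genes that rose and 11.0% that fell. The median log2 fold change was 1.72 over the 42 and 0.05 over all genes. On day 4 the counts were 6 and 2 of 42 (all genes 3.67% and 4.07%), and on day 6 they were 19 and 5 (8.95% and 8.69%). On day 4 H19, Igf2, Nnat, Snrpn, Magel2 and Gnas had risen, and Phlda2 and Ddc had fallen. The call of Phlda2 was lost on leaving out any 1 of the 6 libraries compared. Gnas lost its call without replicate 2 or 3 of either day, H19 without replicate 2 or 3 of day 0 or replicate 1 of day 4, and Igf2 without replicate 2 of day 0. By the mean of each group, 27 of the 42 (64.3%) were highest on day 8 in E14Tg2a, against 37.8% of all genes. Markers of other cell types moved over the same days. From day 0 to day 8 in E14Tg2a all 15 mesenchyme and mesoderm markers and 15 of 18 extra-embryonic endoderm markers rose, and 10 of 11 naive pluripotency genes fell. Of 7 trophoblast markers 4 rose, Hand1 of the mesoderm list among them, and 1 fell, and of 7 neural markers 2 rose and 2 fell. The summed level went from 5.15 to 45.9 TPM up to 1542 to 3520 TPM for mesenchyme, from 58.2 to 471 up to 773 to 982 for endoderm, from 34.3 to 42.9 up to 662 to 727 for trophoblast, and from 1727 to 1833 down to 78.8 to 114 for the naive genes. Their part in the rise of the imprinted genes was not tested.

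Both parental classes took part. Of the 23 paternally expressed genes 13 rose and 2 fell by day 8, with a median log2 fold change of 2.07, and of the 15 maternally expressed genes 10 rose and 0 fell, with a median of 1.62. Of the 4 genes that depend on isoform or tissue, Grb10 and Gnas rose, Ddc fell and Inpp5f (0.62 ± 0.14 SE) did not pass the rule. Of the 5 non-canonical genes only Slc38a4, an amino acid transporter, rose, and Gab1 and Jade1 fell. The fall of Jade1, a subunit of a histone acetyltransferase complex, was from 96.4, 78.3 and 86.5 TPM on day 0 to 20.9, 23.5 and 19.4 on day 8, with no overlap. Gab1, an adaptor of receptor tyrosine kinases, went from 68.0, 71.0 and 64.4 TPM to 16.8, 29.3 and 20.5.

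Igf2 and H19 lie 72.6 kb apart on chromosome 7, Igf2 at chr7:142650766-142666816 and H19 at chr7:142575529-142578143 (mm10, GENCODE M21, both on the minus strand). H19 is a maternally expressed noncoding RNA that shares its enhancers with Igf2. Igf2 had the largest change of the 42 genes. It measured 13.5, 1.28 and 3.07 TPM in the 3 E14Tg2a libraries of day 0, 49.97, 14.1 and 24.98 on day 4, 996 and 274 on day 6, and lastly 3241, 5583 and 3197 on day 8. Every library of a later day lay above every library of the day before it. The log2 fold change to day 8 was 9.56 ± 0.63 (SE, limma adjusted p = 7.5e-12).

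H19 measured 71.5, 12.6 and 12.4 TPM on day 0, 665, 80.5 and 224 on day 4, 298 and 214 on day 6, and lastly 4734, 1757 and 1958 on day 8, a log2 fold change of 6.75 ± 0.996 to day 8 (adjusted p = 2.6e-06). H19 had thus left its ESC level by day 4 in each library, with days 4 and 6 overlapping. Replicate 1 of day 0 stood above the other replicates. The summed level of 18 extra-embryonic endoderm markers stood high in the same library as well, at 471 TPM against 58.2 and 73.9, and in replicate 1 of day 4 at 1416 against 214 and 726. That of 15 mesenchyme and mesoderm markers was at 45.9 TPM in replicate 1 of day 0 against 7.61 and 5.15. In replicate 1 of day 4 it was at 24.4 TPM against 26.4 and 43.3. The part of these cells in the H19 values was not tested.

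In the Dlk1-Meg3 cluster on chromosome 12 the paternally expressed Dlk1, a transmembrane protein of the Notch ligand family, changed most. It measured 2.63, 2.97 and 3.84 TPM on day 0, 3.24, 2.32 and 2.59 on day 4, 48.4 and 16.6 on day 6, and lastly 149, 483 and 253 on day 8 (log2 fold change 6.00 ± 0.47, adjusted p = 1.1e-10). Dlk1 thus stayed at its ESC level on day 4 and rose between days 4 and 6. The maternally expressed noncoding RNAs of the cluster were already at over 100 TPM in ESCs, Mirg excepted. Meg3 went from 170, 138 and 109 TPM on day 0 to 563, 869 and 501 on day 8 (2.19 ± 0.25, adjusted p = 5.5e-08), and Rian, a host of small nucleolar RNAs, from 238, 196 and 190 to 757, 917 and 573 (1.82 ± 0.24, adjusted p = 5.3e-07). Mirg, a microRNA host, went from 25.03, 17.4 and 25.1 TPM to 62.5, 79.9 and 49.7 (1.46 ± 0.24, adjusted p = 9.4e-06). All 4 genes of the cluster rose, with a median log2 fold change of 2.005.

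Peg3 (chr7:6703892-6730431, minus strand) measured 12.5, 9.2 and 8.08 TPM on day 0, 32.3, 18.4 and 21.7 on day 4, 159 and 133 on day 6, and lastly 370, 377 and 218 on day 8. Usp29 (chr7:6730578-6967219, plus strand) measured 0.876, 0.794 and 0.806 TPM on day 0 and 21.6, 34.3 and 25.3 on day 8. Their fold changes of mean TPM were close, at 32.4 and 32.8, while the TPM of Peg3 on day 8 (322 ± 89.7 SD, n = 3) was above that of Usp29 (27.1 ± 6.53). On the log2 scale of TPM + 1 the changes were 4.86 ± 0.46 for Peg3 and 3.92 ± 0.33 for Usp29, since the pseudocount of 1 TPM shrinks the change of the lower gene. The maternally expressed Zim1, a zinc finger gene 7.44 kb beyond Peg3, went from 0.504, 0.320 and 0.240 TPM to 7.57, 25.4 and 17.9 (3.59 ± 0.28).

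The Peg10 cluster on chromosome 6 also begins with a shared start region, between the retrotransposon-derived Peg10 and the sarcoglycan gene Sgce, which lie 98 bases apart. Peg10 measured 104, 35.2 and 44.2 TPM on day 0 and 967, 1031 and 633 on day 8 (3.95 ± 0.40), and Sgce 7.66, 8.02 and 6.11 and then 59.1, 78.2 and 79.0 (3.14 ± 0.21). The maternally expressed Asb4, a subunit of a ubiquitin ligase that lies 636 kb from Sgce, showed the sharpest step. It was at 0.304, 0.584 and 0.420 TPM on day 4, at 31.1 and 29.6 on day 6 and at 23.9, 49.1 and 33.7 on day 8 (4.804 ± 0.38 from day 0 to day 8). Ppp1r9a of the same cluster, an actin-binding scaffold, moved the other way, from 13.8 ± 1.27 to 8.42 ± 2.46 TPM (SD, n = 3; -0.68 ± 0.20, not called).

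Outside these clusters, Plagl1, Mest and Cdkn1c, the last of the Kcnq1ot1 cluster with Phlda2, Slc22a18 and Ascl2, had large changes. Plagl1, a zinc finger transcription factor, measured 1.71, 1.42 and 1.02 TPM on day 0, 3.98 and 5.17 on day 6, and lastly 31.2, 184 and 25.7 on day 8 (4.52 ± 0.61, adjusted p = 6.3e-07). Replicate 2 of day 8 stood apart from the other replicates. Mest, a protein of the hydrolase fold, measured 54.5, 79.0 and 80.4 TPM on day 0 and 1357, 1509 and 970 on day 8 (4.14 ± 0.38). Cdkn1c measured 31.0, 13.7 and 32.0 TPM and then 344, 541 and 410 (4.09 ± 0.37). The other genes that rose were Nnat (3.74), Ndn (3.38), Gnas (2.86), Peg12 (2.19), Phlda2 (2.08), Slc38a4 (2.07), Grb10 (1.89), Igf2r (1.62), Magel2 (1.59) and Dcn (1.58), all as log2 fold changes from day 0 to day 8. In mean TPM Nnat went from 9.34 to 149, Gnas, the gene of a G protein subunit, from 172 to 1280, Phlda2 from 111 to 477 and Slc38a4 from 96.6 to 412. Dcn, which codes for the matrix proteoglycan decorin, was listed at 0 in all 3 E14Tg2a libraries of day 0 and measured 0.852, 7.30 and 0.727 TPM on day 8, so that replicate 2 gave most of its value. Without that library its rise was not called.

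**Figure D2:**
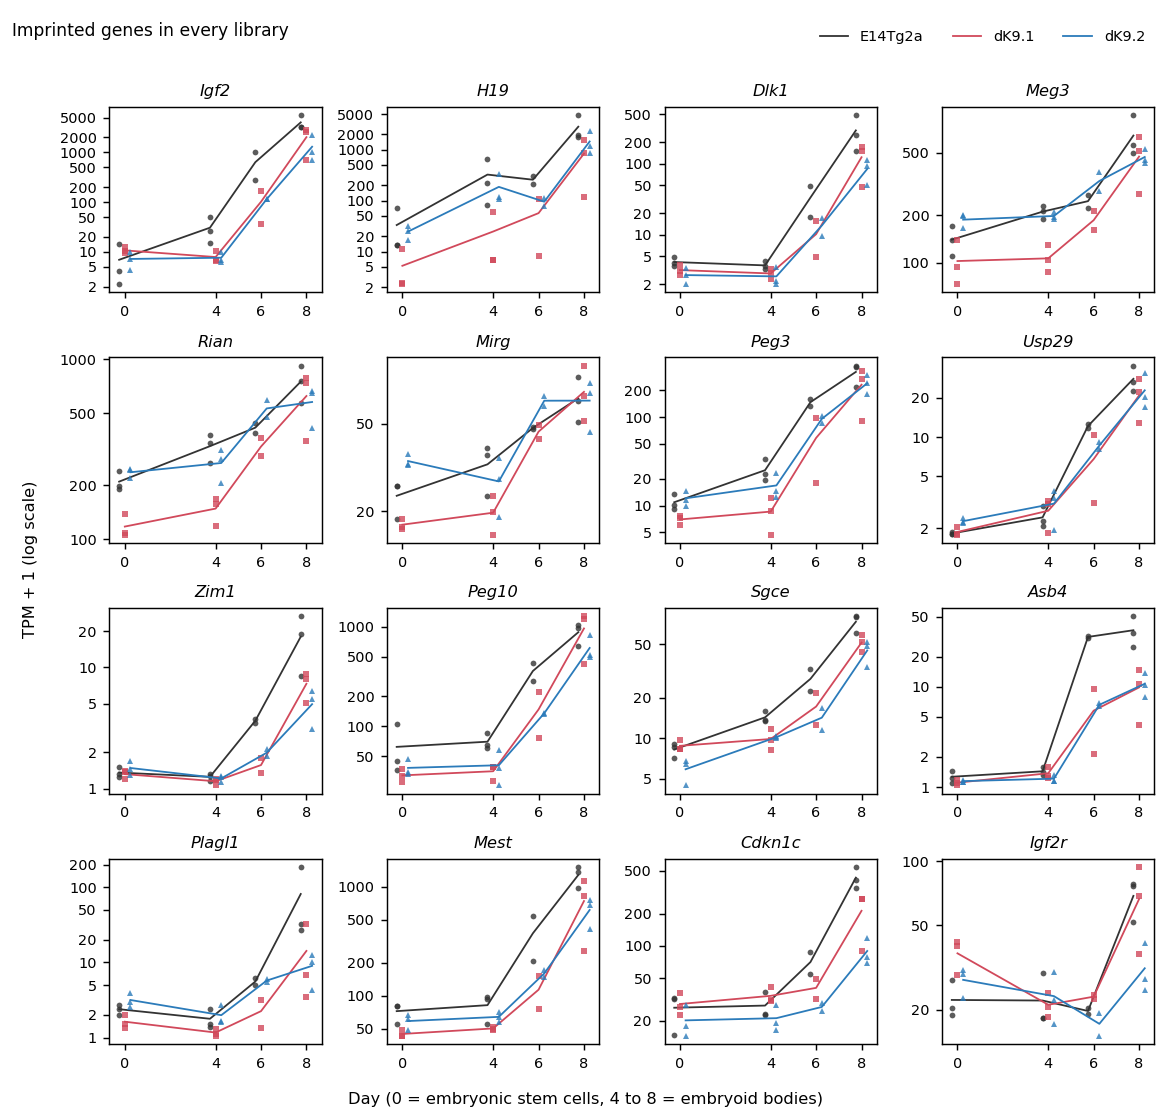
TPM + 1 (vertical axis, log scale, a scale for each gene) against day for 16 imprinted genes, with a point per library (circles E14Tg2a, squares dK9.1, triangles dK9.2) and lines through the group means. In E14Tg2a Igf2 rises from 1.28 to 13.5 TPM on day 0 to 3197 to 5583 on day 8 and Dlk1 from 2.63 to 3.84 to 149 to 483, Rian, Meg3 and Mirg start high, and Asb4 of E14Tg2a is at 23.9 TPM or more from day 6 while that of the clones stays at or below 13.6.

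The genes of the Snrpn cluster on chromosome 7, the counterpart of the region affected in Prader-Willi and Angelman syndromes, did not share a time course. Ndn, a MAGE family protein, rose up to day 8, from 3.46, 2.91 and 2.03 TPM to 38.5, 48.1 and 29.5. Snrpn, which codes for a spliceosomal protein, was highest on day 4, at 112, 77.7 and 72.0 TPM on day 0, 217, 298 and 251 on day 4, 204 and 243 on day 6, and lastly 180, 146 and 132 on day 8. Magel2, which lies 26.7 kb from Ndn, was highest on day 6, at 4.13 and 6.53 TPM, against 0.405, 0.110 and 0.0436 on day 0 and 3.81, 2.29 and 1.80 on day 8. Peg12 was at 0.206, 0.195 and 0.302 TPM on day 4 and at 6.23, 4.21 and 5.94 on day 8. Ube3a, the maternally expressed ubiquitin ligase of the cluster, was at 32.7 ± 1.9 TPM on day 0 and 43.2 ± 4.4 on day 8 (0.39 ± 0.10, not called). Snrpn shares exons with Snurf on its strand, and reads from that pair cannot be assigned to either with certainty.

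The remaining genes changed little or were low in E14Tg2a, Ddc excepted. Impact (79.3 and 93.5 TPM on days 0 and 8), Zdbf2 (22.3 and 29.7), Zrsr1 (19.03 and 20.1), Commd1 (123 and 114), Mcts2 (39.5 and 33.8) and Inpp5f (13.4 and 21.1) were not called. Sfmbt2 (5.81 and 4.07), Smoc1 (6.70 and 4.67), Ascl2 (3.30 and 1.51), Slc22a18 (3.03 and 2.10) and Nap1l5 (0.537 and 0.696) were not called either. Ddc, the aromatic amino acid decarboxylase, fell from 27.1 ± 4.62 to 12.1 ± 1.62 TPM. Mcts2 and Zrsr1 are retrogenes in introns of H13 and Commd1, with parent genes of near-identical sequence elsewhere, so part of their reads may be shared with those copies. Zrsr1 runs opposite to Commd1 and Nnat opposite to Blcap, which the strand-specific libraries tell apart, but Mcts2 is on the strand of H13.

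Of 18 factors for imprint maintenance and DNA methylation, 0 rose, 8 fell and 10 were not called by day 8 in E14Tg2a, against the 15.9% and 11.0% of all genes given above. On day 4 the DNA methyltransferase genes Dnmt3a (1.51) and Dnmt3b (3.05), and Dppa3 (1.19), had risen, and Zfp57, Zfp42, Tet1 and Tet2 had fallen. Zfp57 went from 282, 244 and 245 TPM on day 0 to 60.2, 85.5 and 50.6 on day 4 and to 41.3, 53.0 and 45.8 on day 8 (-2.44 ± 0.24, adjusted p = 6.0e-09), and Trim28 from 1094, 939 and 962 TPM to 499, 416 and 350 on day 8 (-1.25 ± 0.14). Tet1, Tet2, Dnmt3l, Eed, Dppa3 and Zfp42 were the other 6 that fell. Of the same 18, only Zfp42 and Dppa3, which also mark naive pluripotency, were higher in the clones on day 8 and 0 were lower (all genes 0.826% and 3.42%). Of 35 further imprinted genes and cluster neighbours, 25 were listed, of which 8 rose and 1 fell by day 8 in E14Tg2a (all genes 15.9% and 11.0%). Airn, the noncoding RNA that runs antisense to Igf2r, was at 0.285, 0.0110 and 0.0109 TPM on day 0 and 12.9, 25.9 and 21.2 on day 8 (4.21 ± 0.41), over the same days in which Igf2r rose from 26.5, 19.3 and 18.0 to 75.5, 76.8 and 50.7. Cobl, next to Grb10, fell (-5.04 ± 0.24), and Phactr2, Casd1, Dio3, Osbpl5, Dhcr7, H13 and Klf14 rose.

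In the clones most of these genes rose too. From day 0 to day 8, 22 of the 42 rose and 5 fell in dK9.1 (all genes 10.9% and 10.0%), and 21 rose and 5 fell in dK9.2 (11.0% and 11.3%). Of the 25 genes that rose in E14Tg2a, 20 rose in both clones as well, against 1296 of all 2594 genes that rose in E14Tg2a. Of the 23 that rose in a clone 0 were not called in E14Tg2a, against 415 of 2145 over all genes; whether these shares differ was not tested. Dcn, Igf2r and Phlda2 were not called in dK9.1, and Dcn, Igf2r, Mirg and Plagl1 were not called in dK9.2. With the replicate number as a block, 23 of the 42 rose in dK9.1 and 22 in dK9.2 (all genes 1783 and 1796). On day 4, 3 rose and 3 fell in dK9.1 (1.37% and 4.02% of all genes) and 4 and 3 in dK9.2 (2.53% and 5.09%). On day 6 the counts were 15 and 4 in dK9.1 (4.95% and 7.9%) and 15 and 7 in dK9.2 (7.0% and 10.5%). Igf2 changed by 7.33 ± 0.63 in dK9.1 and 7.40 ± 0.63 in dK9.2, against 9.56 in E14Tg2a, and H19 by 7.08 and 5.78, against 6.75. Jade1, Gab1 and Ddc fell in all 3 lines.

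**Figure D3:**
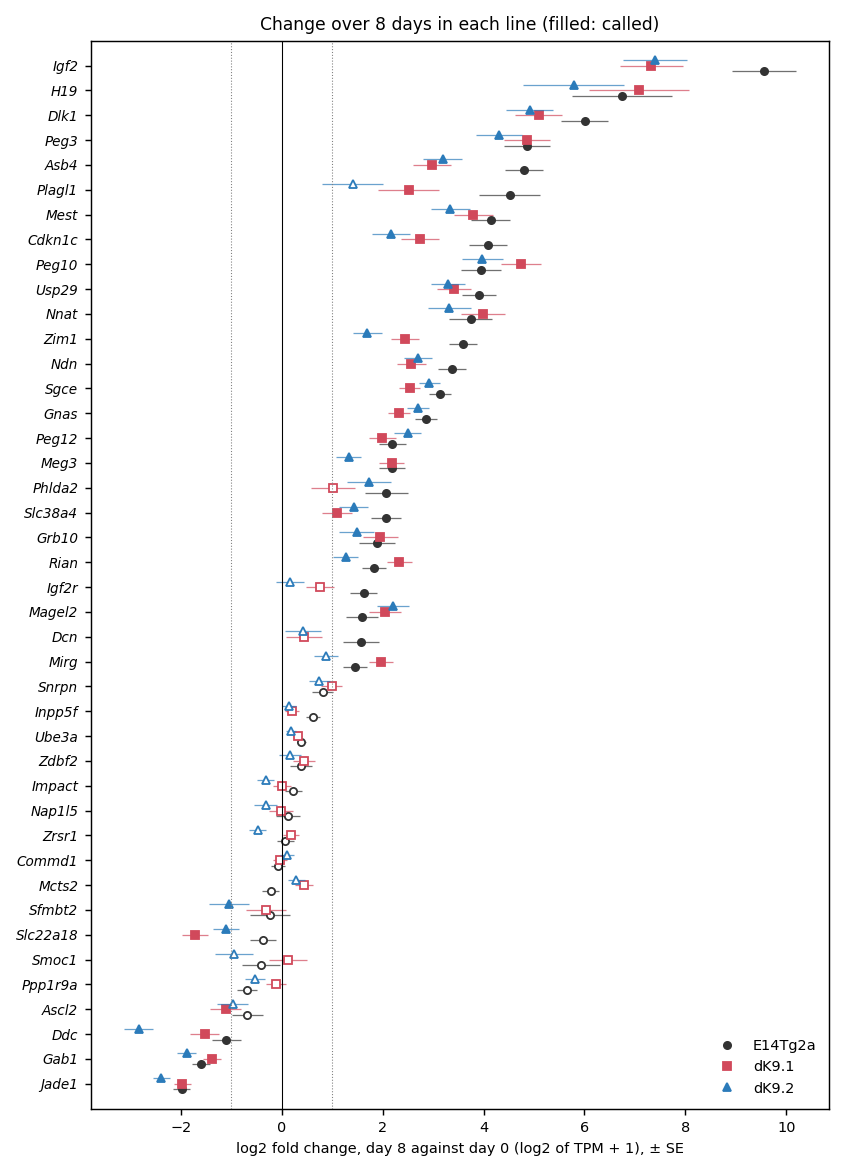
Log2 fold change of TPM + 1 from day 0 to day 8 (horizontal axis, bars ± SE from limma) for each of the 42 genes in E14Tg2a (circles), dK9.1 (squares) and dK9.2 (triangles); filled symbols are called and dotted lines mark a change of 1. In 20 genes all 3 symbols are filled to the right of 1, and Plagl1, Cdkn1c, Zim1, Asb4 and Igf2r of both clones lie to the left of E14Tg2a.

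To see where the clones differed from wild type, lines were compared within a day, first with the mean of both clones; all these comparisons share the E14Tg2a libraries of that day. On day 4, 0 of the 42 genes were called (all genes 0.0857% higher and 0.71% lower; 13 of the 42 at an unadjusted p under 0.05). With the replicate number as a block, Igf2 was called lower on day 4 (-1.83, limma adjusted p = 0.048), against an adjusted p of 0.070 without it. It measured 49.97, 14.1 and 24.98 TPM in E14Tg2a against 5.81, 9.22 and 5.66 in dK9.1 and 8.87, 5.19 and 5.90 in dK9.2, so that all clone libraries lay below those of E14Tg2a while the clones overlapped each other.

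On day 6 Igf2 (-2.46 ± 0.67, adjusted p = 0.036), Asb4 (-2.53 ± 0.40, adjusted p = 0.00052) and Zim1 (-1.05 ± 0.30, adjusted p = 0.045) were lower in the clones and Magel2 (1.31 ± 0.34, adjusted p = 0.026) was higher, against 1.37% of all genes lower and 0.251% higher. Igf2 was at 996 and 274 TPM in E14Tg2a, 166 and 35.8 in dK9.1 and 115 and 114 in dK9.2. Asb4 was at 31.1 and 29.6 TPM, 8.43 and 1.12, and 5.38 and 5.83. With the replicate block Peg10 (-1.41), Mest (-1.36) and Dlk1 (-1.47) were called lower too, which makes 7 (all genes 1.78% lower). Replicate 3 of dK9.1 was the lower of its pair in 24 of the 25 genes that rise in E14Tg2a. The count of 4 became 1 without it and 10 without the other dK9.1 library, while the share of all genes called lower became 0.613% and 2.54%. The count of imprinted genes also fell without replicate 2 of E14Tg2a or without either replicate of dK9.2, as did the calls over all genes. Each of these fits leaves 1 library in a group. Clone by clone, 2 genes were lower in dK9.1 (Asb4 and Zim1; 1.26% of all genes) and 0 higher (0.355%), and 1 was lower in dK9.2 (Asb4; 0.716%). The count for dK9.1 was 7 with the replicate block, 0 without its replicate 3 and 12 without its replicate 2, in fits that called 1.76%, 0.0919% and 2.98% of all genes lower. Cell markers differed on day 6 as well. The endoderm sum was 292 to 523 TPM in E14Tg2a, 61.2 to 140 in dK9.1 and 104 to 108 in dK9.2 (3 of 18 lower in the clones), and the mesenchyme sum 426 to 632, 63.1 to 176 and 149 to 189 (5 of 15 lower). The naive sum was 268 to 287, 410 to 464 and 318 to 341 TPM, with 0 of 11 called by limma. The trophoblast sum was 257 to 387, 43.4 to 237 and 156 to 159 TPM, with 1 of 7 lower, Hand1. Their part in the differences of day 6 was not tested. On day 6 all clone libraries lay below both E14Tg2a libraries in 15 of the 42 genes and above them in 6, against 19.6% and 12.8% of all genes.

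On day 8, 8 of the 42 genes were lower in the clones and 0 were higher, against 3.42% of all genes lower and 0.826% higher. The median log2 difference was -0.43 over the 42 genes and -0.0035 over all genes, and 33 of the 42 had a difference below 0. Plagl1 (-2.64 ± 0.53, adjusted p = 0.00097), Asb4 (-1.88 ± 0.33, adjusted p = 0.00031), Cdkn1c (-1.73 ± 0.32, adjusted p = 0.00052) and Dlk1 (-1.51 ± 0.41, adjusted p = 0.010) led, followed by Zim1 (-1.48), Ddc (-1.25), Dcn (-1.14) and Mest (-1.05). The 8 genes belong to 8 clusters. Of them 4 are maternally expressed (Asb4, Cdkn1c, Zim1, Dcn), 3 paternally (Plagl1, Dlk1, Mest) and 1 depends on the tissue (Ddc). Dcn had its highest group mean, 2.96 TPM, in E14Tg2a on day 8, against a clone mean of 0.379 TPM. On that day it reached the minimum of 1 TPM only in E14Tg2a, so its call is not independent of the filter.

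Cdkn1c showed this in every library. It was at 344, 541 and 410 TPM in E14Tg2a on day 8, at 275, 271 and 89.1 in dK9.1 and at 69.1, 119 and 78.4 in dK9.2, so that all 6 clone libraries lay below the lowest of E14Tg2a. Asb4 was at 23.9, 49.1 and 33.7 TPM in E14Tg2a, 9.74, 13.6 and 3.19 in dK9.1 and 12.8, 9.45 and 6.89 in dK9.2, and did not overlap either. Ddc was at 13.1, 12.9 and 10.2 TPM against 6.35, 8.58 and 3.99, and 1.52, 4.73 and 4.26. Igf2 and Sgce also lay below E14Tg2a in all 6 libraries, and all of them lay above it in Commd1 and Mcts2, giving 5 genes below and 2 above of 42, against 7.99% and 5.44% of all genes. Igf2 was at 2574, 2793 and 701 TPM in dK9.1 and 706, 2189 and 997 in dK9.2 (-1.46 ± 0.55, limma adjusted p = 0.061), and was not called; with the replicate block it was (adjusted p = 0.049), which makes 9.

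Plagl1 overlapped between lines. It was at 31.2, 184 and 25.7 TPM in E14Tg2a, 5.86, 31.3 and 2.49 in dK9.1 and 3.36, 9.19 and 11.5 in dK9.2, so that 1 dK9.1 library lay within the E14Tg2a range. Dlk1 was at 149, 483 and 253 TPM in E14Tg2a, 170, 151 and 46.8 in dK9.1 and 49.1, 111 and 90.8 in dK9.2, Zim1 at 7.57, 25.4 and 17.9, 7.87, 7.09 and 4.06, and 2.11, 5.33 and 4.48, and Mest at 1357, 1509 and 970, 818, 1136 and 256, and 406, 752 and 673. Dcn was low throughout, at 0.852, 7.30 and 0.727 TPM, 0.161, 0.880 and 0.200, and 0.292, 0.173 and 0.569. In Dlk1, Zim1 and Mest at least 1 dK9.1 library reached into the E14Tg2a range, while all dK9.2 libraries lay below it. Without replicate 2 of E14Tg2a, the highest of its group in 19 of the 25 rising genes, the count fell from 8 to 5, against 1.86% of all genes lower, and Dlk1, Dcn and Mest were no longer called. Mest also lost its call without replicate 1 of E14Tg2a, replicate 3 of dK9.1 or replicate 1 of dK9.2.

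Markers of other cell types differed between the lines on day 8 as well. The sum of the 18 extra-embryonic endoderm markers on day 8 was 773 to 982 TPM in E14Tg2a, 121 to 384 in dK9.1 and 167 to 234 in dK9.2, with 11 of the 18 called lower in the clones and none of the 18 at 0 in all libraries of a day 8 group. The sum of 15 mesenchyme and mesoderm markers was 1542 to 3520 TPM in E14Tg2a, highest in replicate 2, against 509 to 1106 and 603 to 996, with 8 of the 15 lower and Mesp1 higher. That of 11 naive pluripotency genes was 78.8 to 114 TPM, 178 to 365 and 175 to 255, with 6 of the 11 higher in the clones. Of 7 listed neural markers 0 were called, and of 7 listed trophoblast markers, which include Hand1 of the mesoderm list, Eomes was higher, while the sum of the 7 was 662 to 727 TPM in E14Tg2a, 168 to 596 in dK9.1 and 328 to 693 in dK9.2. Their part in the differences of the imprinted genes was not tested.

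Clone by clone, dK9.1 had 5 of the 42 genes lower and 1 higher than E14Tg2a on day 8 (all genes 2.41% and 0.686%), and dK9.2 had 8 lower and 0 higher (4.24% and 0.955%). Plagl1, Asb4, Cdkn1c, Zim1 and, with the limit on its filter given above, Dcn were lower in each clone. Dlk1, Ddc and Igf2r passed the rule in dK9.2, and Grb10, a growth factor receptor adaptor, was higher in dK9.1 (1.25 ± 0.35, limma adjusted p = 0.021). With the replicate block Dlk1 was called lower in dK9.1 as well, which makes 7, and Igf2 and Mest in dK9.2, which makes 10. Without replicate 2 of E14Tg2a the counts fell from 6 to 1 for dK9.1 (Asb4) and from 8 to 5 for dK9.2 (Asb4, Cdkn1c, Ddc, Igf2r and Zim1). For the mean of both clones all genes called lower were 558, with 576 under the replicate block and 302 without replicate 2 of E14Tg2a. The drop was thus not confined to the imprinted genes. Without replicate 3 of dK9.1 its count was 2 (Asb4 and Grb10), and without replicate 1 of dK9.2 that of dK9.2 was 5. All genes called lower for the mean of both clones were 481 and 469 without these libraries. Grb10 was not called without replicate 2 or 3 of E14Tg2a or replicate 1 or 2 of dK9.1. In the direct comparison of dK9.2 with dK9.1 on day 8, limma called 0 of the 42 genes (all genes 0.0% in either direction; 8 of the 42 and 990 of all genes at an unadjusted p under 0.05). Without replicate 3 of dK9.1, Grb10 (-1.64), Cdkn1c (-1.65) and Igf2r (-1.39) were lower in dK9.2, with 4 genes higher and 77 lower over all genes. That replicate of dK9.1 was the lowest of its group in 23 of the 25 rising genes. That library had the highest naive pluripotency sum of day 8, at 365 TPM.

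**Figure D4:**
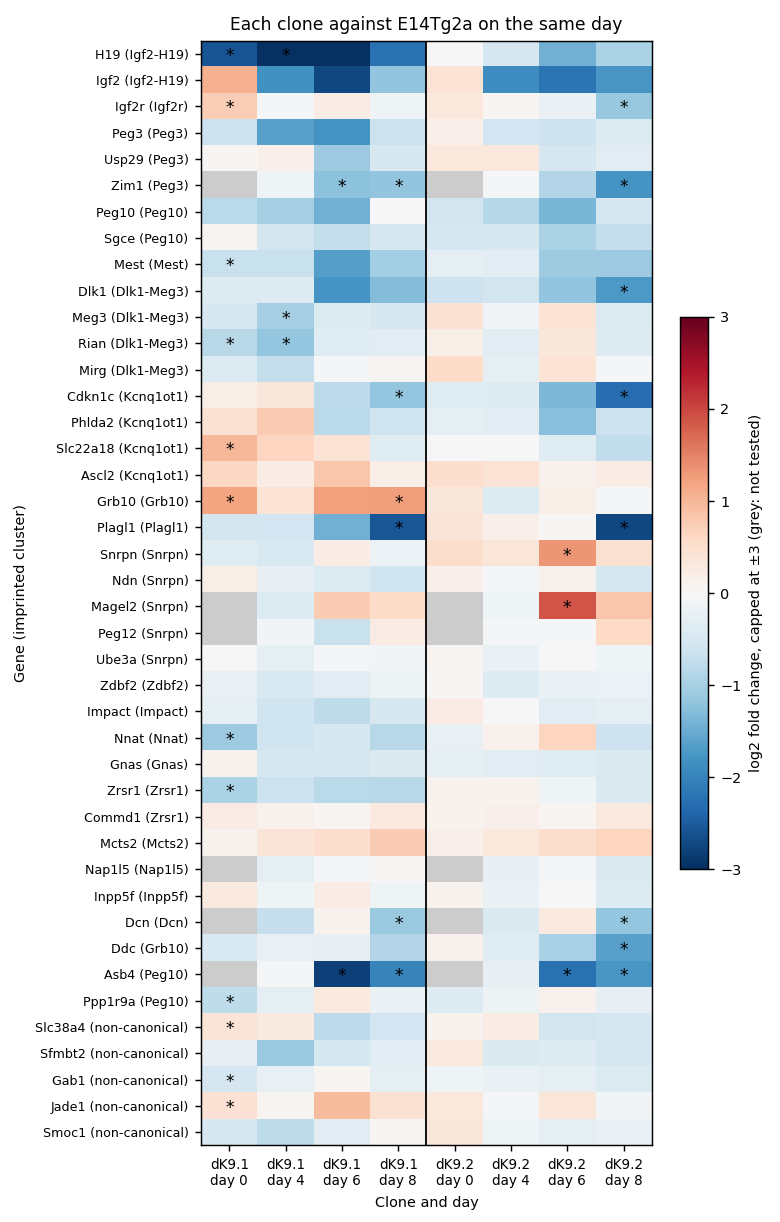
Log2 difference of TPM + 1 between each clone and E14Tg2a on the same day (colour, capped at ±3) for the 42 genes, with clone and day on the horizontal axis, gene and imprinted cluster on the vertical axis, an asterisk for each call and grey for genes under the minimum on day 0. Calls of dK9.1 on day 0 stand against none in dK9.2, and Asb4, Cdkn1c, Plagl1, Zim1 and Dcn carry an asterisk in both clones on day 8.

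Going from day 0 to day 8, the signed log2 change was lower in the clones than in E14Tg2a for 6 of the 42 genes and higher for 0 (all genes 2.55% and 0.508%). Plagl1, Asb4, Cdkn1c, Zim1 and Igf2r had risen less in the clones, and Slc22a18 had fallen further, from 6.85 to 1.41 TPM in dK9.1 and from 3.02 to 0.846 in dK9.2 against 3.03 to 2.10 in E14Tg2a (group means). These calls depended on single libraries. Without replicate 2 of E14Tg2a on day 8 the count was 0 (all genes 0.867% lower by limma). Without replicate 2 of E14Tg2a on day 0 it was 1 (253 of all genes lower, in place of 416 with all libraries). It was 2 without replicate 3 of that group, without replicate 1 of dK9.2 on day 0 or without replicate 1 of dK9.2 on day 8. In these fits 184, 364 and 294 of all genes were lower. It was 3 without replicate 1 or 2 of dK9.1, or replicate 2 of dK9.2, on day 0, with 345, 347 and 336 of all genes lower.

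In undifferentiated cells Rian and Zrsr1 differed between the clones. Between the clones the call threshold on the absolute log2 fold change was 1, as above, and between a clone and E14Tg2a on day 0 it was 0.3; 36 of the 42 genes passed the minimum of 1 TPM in a group. In dK9.1, 5 of the 36 were higher and 7 lower than in E14Tg2a, against 9.96% and 4.88% of 14504 genes. In dK9.2 limma called 0 of the 36 (0.00689% and 0.0758% of all genes, and 8 of the 36 at an unadjusted p under 0.05). In each clone in the same direction 0 of the 36 passed, and over all genes 0 passed higher and 11 lower. The paper, testing read counts under the same limits, reports more genes changed in both clones and a small rise of Nanog. Nanog was at 412, 439 and 426 TPM in dK9.2 against 326, 338 and 368 in E14Tg2a, and limma did not call it in dK9.2. The lack of calls in dK9.2 thus cannot show that this clone matched E14Tg2a. For the mean of both clones limma called Jade1 higher (0.37 ± 0.08, adjusted p = 0.027) and Ppp1r9a lower (-0.57 ± 0.12, adjusted p = 0.032), 1 and 1 of the 36 against 3.65% and 1.77% of all genes. This count of 2 was 7 with the replicate block (2 higher and 5 lower; all genes 9.14% and 4.34%), 5 without replicate 1 of E14Tg2a (4 and 1; 7.52% and 2.77%), and 0 without replicate 2 or 3 of E14Tg2a, replicate 1 or 2 of dK9.1 or replicate 2 of dK9.2; it was 1 without replicate 3 of either clone. Grb10 (1.18), the transporter gene Slc22a18 (0.99), Igf2r (0.73), Jade1 (0.43) and Slc38a4 (0.39) were higher in dK9.1, and H19 (-2.58), Nnat (-1.09), Zrsr1 (-0.95), Rian (-0.83), Ppp1r9a (-0.75), Mest (-0.67) and Gab1 (-0.52) were lower. Nnat was at 13.2, 5.06 and 9.74 TPM in E14Tg2a against 4.51, 2.81 and 3.61 in dK9.1, and Ppp1r9a at 15.2, 12.8 and 13.3 against 8.63, 7.85 and 6.86. Mest was at 42.1, 42.0 and 47.1 TPM in dK9.1 and Gab1 at 49.8, 49.3 and 42.5, each below the E14Tg2a values given above. Slc38a4 was at 94.6, 98.4 and 96.9 TPM in E14Tg2a against 136, 130 and 116, and Jade1 was at 124, 114 and 115 and Igf2r at 40.8, 38.7 and 28.1 in dK9.1, each above E14Tg2a. With the replicate block the count was 18, 6 higher and 12 lower, against 16.7% and 8.63% of all genes in that fit, Phlda2 (0.46) being added to the former and Peg10 (-0.80), Smoc1 (-0.49), Meg3 (-0.48), Ddc (-0.45) and Mirg (-0.42) to the latter. The count was 7 without replicate 3 of E14Tg2a (all genes 653 higher and 404 lower) and 5 without replicate 2 of dK9.1 (536 and 290), against 1445 and 708 of all genes with every library. Rian, Ppp1r9a and Zrsr1 were called under all 12 alternatives. H19 and Nnat were called under 5 of the 12, Grb10 under 6, Mest and Igf2r under 7, Slc22a18 under 8, Slc38a4 under 9, and Jade1 and Gab1 under 11. Each of these except Jade1 and Gab1 lost its call on leaving out at least 2 of the single libraries. H19 was not called without replicate 1, 2 or 3 of E14Tg2a or replicate 2 or 3 of dK9.1.

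Zrsr1, which codes for a protein related to a splicing factor and lies at chr11:22972005-22976496 inside Commd1, was lower in dK9.1 throughout. On day 0 it was at 18.5, 19.8 and 18.7 TPM in E14Tg2a, 11.9, 7.62 and 8.98 in dK9.1 and 19.2, 23.3 and 19.7 in dK9.2. It was at 11.2, 12.6 and 12.97 TPM in E14Tg2a and 9.16, 7.62 and 5.85 in dK9.1 on day 4, at 11.7 and 14.6 against 7.92 and 6.22 on day 6, and at 20.0, 18.5 and 21.7 against 11.6, 10.8 and 10.02 on day 8. The ratio of the means on day 0 was 0.499, and dK9.1 did not overlap E14Tg2a on any day. The log2 differences were -0.95 ± 0.15 on day 0 (adjusted p = 0.0051), -0.65 ± 0.16 on day 4, -0.81 ± 0.20 on day 6 and -0.84 ± 0.16 on day 8 (adjusted p = 0.0018), the last 3 being under the threshold of 1. Against dK9.1, dK9.2 was higher by 1.07 ± 0.15 on day 0 (adjusted p = 0.019). Commd1, on the other strand, was at 123 ± 24.7 TPM in E14Tg2a and 145 ± 26 in dK9.1 on day 0, and was not called.

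Rian was the other gene called between the clones on day 0. Its level was at 138, 107 and 105 TPM in dK9.1 against 238, 196 and 190 in E14Tg2a and 219, 243 and 242 in dK9.2, a log2 difference of 1.01 ± 0.12 between the clones (limma adjusted p = 0.015, on a threshold of 1; all genes 0.372% higher and 0.214% lower in dK9.2). With the replicate block H19 was called between the clones too (2.60, limma adjusted p = 0.010), which makes 3. This pair of calls, Rian and Zrsr1, was lost without replicate 2 or 3 of dK9.1 or without any single dK9.2 replicate, and held without replicate 1 of dK9.1. On day 4 dK9.1 was lower than E14Tg2a in Rian (-1.15 ± 0.24, adjusted p = 0.0090), Meg3 (-1.003 ± 0.25, adjusted p = 0.026) and H19 (-4.01 ± 0.996, adjusted p = 0.026), 3 of 42 genes against 0.924% of all genes, with 0 higher (0.147%). The count was 0 without replicate 3 of E14Tg2a or replicate 3 of dK9.1, 1 without replicate 2 of dK9.1 and 5 with the replicate block, which added Peg3 and Sfmbt2 (all genes 1.16% lower). In dK9.2 limma called 0 of the 42 on day 4 (0.0184% and 0.0979% of all genes; 4 of the 42 at an unadjusted p under 0.05). Meg3 was at 128, 102 and 86.3 TPM in dK9.1 on day 4 against 188, 229 and 213 in E14Tg2a and 195, 187 and 210 in dK9.2. By day 8 the noncoding RNAs of the cluster overlapped, Rian being at 735, 785 and 350 TPM in dK9.1 and 757, 917 and 573 in E14Tg2a.

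H19 of dK9.1 was low on each day. It was at 10.1, 1.39 and 1.32 TPM on day 0, 59.4, 5.92 and 5.98 on day 4, 105 and 7.15 on day 6, and lastly 854, 1535 and 115 on day 8, below all E14Tg2a libraries of the same day each time. The endoderm sum of day 4 was 38.6 to 99.5 TPM in dK9.1 against 214 to 1416 in E14Tg2a, and its part in H19 was not tested. In dK9.2 it was at 30.4, 16.0 and 24.7 TPM on day 0 and 850, 2320 and 1162 on day 8. Replicate 1 of days 0 and 4 was the highest of its group in all 3 lines. Igf2 of dK9.1 on day 0 was at 9.55, 8.39 and 11.3 TPM and overlapped E14Tg2a (13.5, 1.28 and 3.07).

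On day 0 Trim28 (-0.33 ± 0.08, limma adjusted p = 0.020) and Dnmt3a (-0.56 ± 0.16, limma adjusted p = 0.043) were lower in dK9.1 than in E14Tg2a. The H3K9 methyltransferase gene Setdb1 (0.55 ± 0.11, limma adjusted p = 0.014) was higher. They were 2 and 1 of the 18 factors for imprint maintenance, against 4.88% and 9.96% of all genes. Zfp57 was at 214, 207 and 212 TPM in dK9.1, 282, 244 and 245 in E14Tg2a and 298, 274 and 261 in dK9.2. Of these 18 factors 0 were called in dK9.2, with the limit on that comparison given above. Of 20 further imprinted genes and neighbours tested on day 0, 3 were higher in dK9.1 (Atp10a, Dhcr7, Tssc4) and 3 lower (Pon2, Casd1, Cobl), against the 9.96% and 4.88% of all genes given above, and 0 were called in dK9.2.

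Snrpn and Magel2 were higher in dK9.2 than in E14Tg2a on day 6. Snrpn was at 568 and 557 TPM in dK9.2, 204 and 243 in E14Tg2a and 240 and 280 in dK9.1 (dK9.2 against E14Tg2a 1.33 ± 0.26, adjusted p = 0.0055), and Magel2 at 19.1 and 24.9, 4.13 and 6.53, and 9.51 and 9.39 (1.88 ± 0.39, adjusted p = 0.010). These were the 2 of 42 genes higher in dK9.2 that day, against 0.159% of all genes. Neither was called without replicate 2 of E14Tg2a or without either dK9.2 library, which left 0 of the 42 genes called. On day 6 the dK9.2 libraries did not overlap the others in either gene. Ndn, between 11.6 and 21.7 TPM in all 6 libraries of day 6, and Peg12, between 0.892 and 4.52, were not called. Snrpn of dK9.2 was also above E14Tg2a in every library of day 0, at 120, 121 and 134 TPM against 112, 77.7 and 72.0 (0.54 ± 0.15, adjusted p = 0.27), and it was called there without replicate 1 of E14Tg2a (0.73). The direct comparison of dK9.2 with dK9.1 on day 6 by limma called 0 of the 42 genes (all genes 0.00612% higher and 0.0% lower; 12 of the 42 at an unadjusted p under 0.05), and day 6 had 2 libraries a line.

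**Figure D5:**
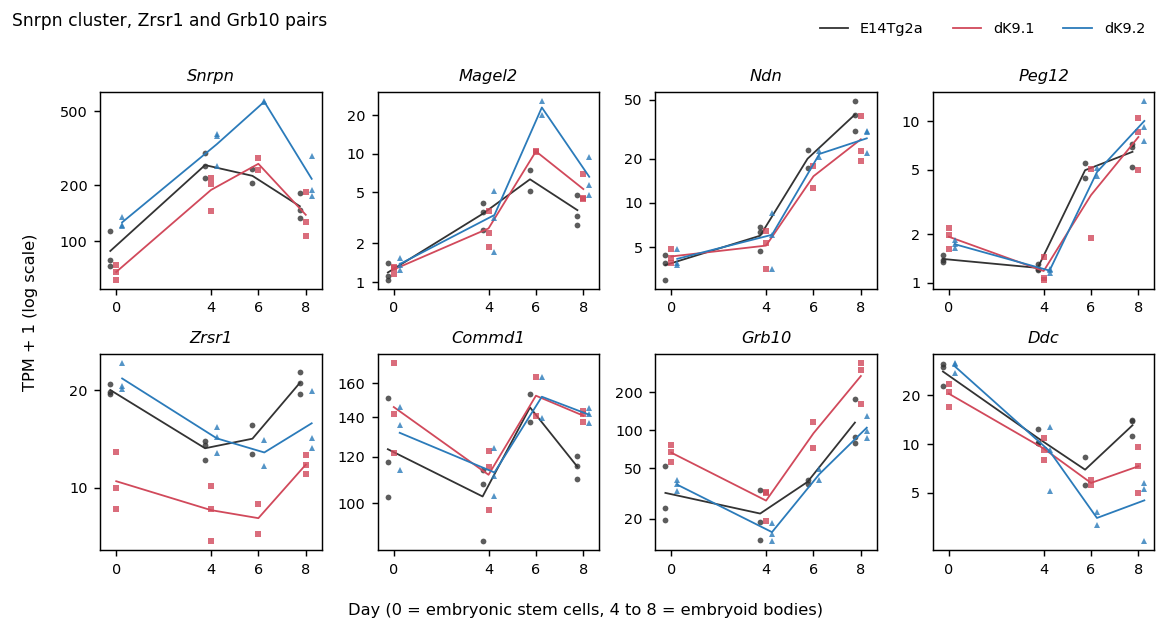
TPM + 1 (vertical axis, log scale, a scale for each gene) against day for 8 genes, with a point per library (circles E14Tg2a, squares dK9.1, triangles dK9.2) and lines through the group means. Zrsr1 of dK9.1 lies below E14Tg2a on every day, Grb10 of dK9.1 above it on days 0 and 6, and Snrpn and Magel2 of dK9.2 peak on day 6 at 557 and 568 TPM and at 19.1 and 24.9 TPM.

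Grb10 of dK9.1 was at 55.7, 65.9 and 75.3 TPM on day 0 against 50.9, 18.5 and 23.5 in E14Tg2a, and at 344, 302 and 160 on day 8 against 176, 87.9 and 79.1. The groups were apart on days 0 and 6 and overlapped on day 8. In dK9.2 Grb10 was at 98.5, 128 and 85.7 TPM on day 8. Its neighbour Ddc, 32.4 kb away, was lower than E14Tg2a in dK9.2 on day 8 (-1.62 ± 0.29, adjusted p = 0.00046). Igf2r, called lower in dK9.2 on day 8 (-1.14 ± 0.28, adjusted p = 0.0056), was at 23.7, 40.3 and 27.0 TPM there against 75.5, 76.8 and 50.7 in E14Tg2a and 67.7, 92.8 and 35.6 in dK9.1. Airn was at 4.71, 17.3 and 9.15 TPM in dK9.2 on day 8 against 12.9, 25.9 and 21.2 in E14Tg2a, and was not called.

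Mcts2 was above all E14Tg2a libraries in every clone library on days 4, 6 and 8. It was at 40.2, 28.6 and 32.7 TPM in E14Tg2a on day 8, 65.1, 59.4 and 49.3 in dK9.1 and 54.8, 62.8 and 43.5 in dK9.2 (0.71 ± 0.15 for the mean of both clones, adjusted p = 0.0015), and its difference stayed under the threshold of 1. Among the further imprinted genes and neighbours, Dio3, the deiodinase gene at the far end of the Dlk1-Meg3 cluster, was at 3.26, 5.002 and 3.21 TPM in E14Tg2a on day 8, 1.01, 1.23 and 0.434 in dK9.1 and 0.866, 1.09 and 1.22 in dK9.2 (-1.28 ± 0.18, adjusted p = 3.0e-05). Phactr2, next to Plagl1, was lower (-1.03 ± 0.26) and Atp10a, near Ube3a, higher (1.16 ± 0.24) in the clones. With Dio3 this made 2 of 25 lower and 1 higher, against 3.42% and 0.826% of all genes.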

How the data were processed

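RNA of 33 libraries from E14Tg2a and the clones dK9.1 and dK9.2 on days 0, 4, 6 and 8 was analysed from 1 table. Its TPM values were made by the authors from strand-specific poly-A libraries with STAR and RSEM on mm10 (submitters' processing notes) and were deposited for 16336 genes, each with a highest group mean of at least 1 TPM. TPM sums per library were 994284 to 998266, so the exact depth of each library is unknown and the number of libraries limits precision. The table also holds 22 columns of DESeq2 comparisons by the authors, which were not used. Values were tested as log2(TPM + 1) with limma 3.58.1 (trended, R 4.3.3) over all libraries, or over the 9 of day 0 for day 0, with a minimum group mean of 1 TPM and Benjamini-Hochberg adjustment over all genes; fold changes on this scale understate changes of low genes. Calls needed an adjusted p under 0.05 and an absolute log2 change above 1 (0.3 between clone and E14Tg2a on day 0). The members and lists were chosen with earlier results of these data known. Values per library are given for members called between lines, the 8 largest changes to day 8 in E14Tg2a and the Igf2-H19, Dlk1-Meg3, Peg3 and Snrpn clusters, and some others were added after their values were seen; the other members are given by their mean level or change. Lines were cultured in parallel, and the deviations of same-numbered libraries from their group means correlated with a median r of 0.222 (33 pairs, of which 31 were above 0.1), against -0.127 for 60 pairs with different numbers; the replicate block was an alternative. The others were adding 0.1 in place of 1 before the log, requiring 5 TPM or nothing, median-ratio rescaling, other libraries in the fit and leaving out each library; those of a single clone on days 4, 6 and 8, and of the mean of both clones on day 0, were chosen after seeing the data. The code was tested on simulated data. Positions are from GENCODE M21 (all 42 genes found). The study's methods speak of lines differentiated in parallel and of independent assays, and the labels give only line, day and number, so p-values cover the spread between these assays only.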

Additional observations from a re-analysis of the deposited data

Results flagged for a closer look

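Between E14Tg2a and the clones the change from day 0 to day 8 differed for 6 of the 42 genes by the interaction term of the fit (difference on the log2 scale, clones minus E14Tg2a): Plagl1 by -2.56 ± 0.74 (adjusted p = 0.040), Asb4 by -1.72 ± 0.47 (adjusted p = 0.028), Cdkn1c by -1.64 ± 0.45 (adjusted p = 0.031), Zim1 by -1.52 ± 0.35 (adjusted p = 0.012), Igf2r by -1.16 ± 0.34 (adjusted p = 0.040) and Slc22a18 by -1.04 ± 0.32 (adjusted p = 0.049). Of 24 alternatives, Zim1 kept its call in 21, Asb4 in 20, Cdkn1c in 18, Plagl1 and Igf2r in 12 and Slc22a18 in 8. Slc22a18 was at 4.13, 2.18 and 2.77 TPM on day 0 and 1.41, 2.76 and 2.13 on day 8 in E14Tg2a, and at 5.93, 7.45 and 7.16 and then 0.902, 1.38 and 1.96 in dK9.1. Single outlying libraries were not tested, since no group holds more than 3.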

How the results depend on the processing

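None of the 223 calls of imprinted genes over 26 comparisons changed sign under any alternative run. Fitting other libraries (only the groups compared, or all 33 for day 0) moved these counts by over 1.5 times: from 8 to 3 for the clones on day 8, from 4 to 1 on day 6, from 6 to 1 for the change over time and from 12 to 5 for dK9.1 on day 0. In that order all genes called lower went from 558 to 298, 224 to 117, 416 to 221 and 708 to 532. Those called higher went from 135 to 36, 41 to 23, 83 to 48 and 1445 to 1246. Ddc, Asb4 and Cdkn1c were the 3 imprinted genes left on day 8. A pseudocount of 0.1 gave 2 imprinted genes on day 6 (all genes 70 higher and 236 lower) and 2 for the change over time (119 and 330). With the replicate block, which follows the pairing of the cultures, the clones had 7 on day 6 and 1 on day 4, in place of 4 and 0, and dK9.1 alone had 5 on day 4 and 7 on day 6 in place of 3 and 2; no other count given here moved by over 1.5 times, that of the mean of both clones on day 0 (below) excepted, and of the called genes only Ppp1r9a in E14Tg2a and Smoc1 in dK9.2, both on day 6, lost their call. Leaving out each library gave 27 to 29 called genes for day 8 in E14Tg2a, 20 to 23 for day 6, 4 to 7 for day 4, 26 to 29 in dK9.1 and 25 to 27 in dK9.2. It gave 0 to 0 for the clones on day 4, 1 to 10 on day 6, 5 to 9 on day 8 and 0 to 7 for the change over time. On day 0 it gave 5 to 12 for dK9.1, 0 to 1 for dK9.2, 0 to 0 for genes called in each clone in the same direction and 0 to 3 between the clones, and 0 to 3 between them on day 8. The 4 called on day 4 were left without replicate 2 of E14Tg2a on day 0, and 5 without replicate 3. For the mean of both clones on day 0, with 2 called, leaving out each library gave 0 to 5, the block 7, median-ratio rescaling 4 and fitting all libraries 0; these and the next were chosen after seeing the data. For single clones leaving out each library gave 0 to 4, 0 to 12 and 1 to 7 in dK9.1 and 0 to 0, 0 to 2 and 5 to 10 in dK9.2 on days 4, 6 and 8, and fitting only the groups compared gave 0, 0 and 0, and 0, 6 and 4. Unless a library left out shows it, the cause was not tested. TPM hides depth, and 2 or 3 libraries a group leave small differences undetected.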
